A study of Homo sapiens with 4 samples.

Results

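The complement system is described here through 9 genes that encode its proteases, central components and inhibitors: C1R, C1S, C3, C5, CFB, CFI, SERPING1, CD55 and CD59. They are a list of names with no threshold on their values, though chosen with earlier results of these data known. All 9 were found among the 61541 genes of the deposited table. Transcripts were measured by RNA sequencing in MHCC97H, an established human hepatocellular carcinoma (HCC) cell line. By the labels, 2 libraries came from control cells carrying shCon and 2 from cells in which the ubiquitin-binding protein UBXN1 was knocked down (shUBXN1), all grown as 1 line with no further treatment named. Neither the labels nor the methods state which of the UBXN1 shRNAs the sequenced cells carried, or whether the replicates came from separate cultures. The p-values therefore set each difference against a spread between libraries that may be technical. With 2 libraries per group, that spread was estimated mostly across genes. The comparison asks which complement transcripts differed between knockdown and control cells.

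Complement is a cascade of plasma proteins, made largely by hepatocytes, that marks targets and can perforate their membranes. The classical pathway starts with the proteases C1r and C1s, the lectin pathway with mannose-binding lectin, and the alternative pathway with factor B, and all of them lead to the cleavage of C3 and then of C5, from which the membrane attack complex is built. Soluble inhibitors such as C1 inhibitor (SERPING1) and factor I (CFI), and the membrane proteins CD55 and CD59, hold the cascade back on the body's own cells. In hepatocytes, transcription of several of these genes is known to rise with interleukin-6 family cytokines, interferons and other inflammatory signals.

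The libraries held 23373700 to 27380508 counts, and the share on the mitochondrial genome was 5.28% to 5.59% in shCon but 7.43% to 8.27% in shUBXN1. UBXN1 itself was read at 1788 and 1817 counts in shCon and at 416 and 433 counts in shUBXN1, and fell 4.09-fold (log2 fold change -2.03, SE 0.0963, adjusted p = 9.98e-10). Counts were divided by each library's TMM-adjusted size and given as CPM, a unit for comparing 1 gene between libraries, while levels of different genes were compared as TPM, which also divides by gene length. The quasi-likelihood test of edgeR was run over 16863 genes, and a gene was called at a Benjamini-Hochberg adjusted p under 0.05. Over the whole table, 28.0% of genes were called higher and 28.2% lower. With the fold change of 2 and unadjusted p under 0.05 that the study's methods give, 11.8% were higher and 6.09% lower. In bulk RNA, fewer cells that make a transcript and less of it per cell cannot be told apart.

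Promoter sequence is shown for the members that were called higher or lower in the comparison below and for which RefSeq (GRCh38.p14) lists a window at the canonical start: C1R and CFB, which rose, CD59, which rose less, and C5, which fell. The bases are the 250 upstream of the start, read 5′ to 3′ on the gene's strand, at chr12:7092446-7092695 (minus strand) for C1R, chr6:31945845-31946094 (plus strand) for CFB, chr11:33736424-33736673 (minus strand) for CD59 and chr9:121050276-121050525 (minus strand) for C5. Capitals mark matches to short motifs named after factors of inflammatory signalling, and to the TATA box.
C1R: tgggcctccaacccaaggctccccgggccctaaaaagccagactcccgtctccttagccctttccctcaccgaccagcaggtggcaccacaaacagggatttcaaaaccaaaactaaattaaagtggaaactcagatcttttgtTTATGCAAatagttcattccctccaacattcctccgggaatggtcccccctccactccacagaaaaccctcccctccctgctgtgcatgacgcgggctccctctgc
CFB: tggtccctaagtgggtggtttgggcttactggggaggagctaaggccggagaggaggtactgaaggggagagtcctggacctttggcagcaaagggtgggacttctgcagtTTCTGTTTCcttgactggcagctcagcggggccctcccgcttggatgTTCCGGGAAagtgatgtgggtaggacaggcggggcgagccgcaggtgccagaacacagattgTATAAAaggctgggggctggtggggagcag
CD59: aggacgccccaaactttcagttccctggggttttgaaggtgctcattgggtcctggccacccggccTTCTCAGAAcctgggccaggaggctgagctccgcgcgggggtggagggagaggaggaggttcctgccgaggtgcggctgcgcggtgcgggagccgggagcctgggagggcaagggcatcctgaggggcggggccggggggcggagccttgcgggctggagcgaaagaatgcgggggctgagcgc
C5: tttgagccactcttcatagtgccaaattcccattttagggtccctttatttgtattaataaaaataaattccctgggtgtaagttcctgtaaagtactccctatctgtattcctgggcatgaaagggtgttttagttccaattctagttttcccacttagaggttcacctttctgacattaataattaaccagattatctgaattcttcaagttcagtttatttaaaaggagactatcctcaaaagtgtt
The search covered 300 bases, from 250 upstream to 50 downstream of each start, on both strands, except that TATAAA was read on the gene's strand alone. The C1R window held 1 match to the C/EBP core TTGCNNAA, 106 to 99 bases upstream on the opposite strand. The CFB window held a GAS match (TTCNNNGAA, the letters bound by STAT dimers) 92 to 84 bases upstream, an ISRE core match (GAAANNGAA, of interferon-responsive promoters) 139 to 131 bases upstream on the opposite strand, and TATAAA 30 to 25 bases upstream. The CD59 window held a GAS match 184 to 176 bases upstream. The C5 window held none of these letters, nor did the windows of CFI and CD55, and none of the 6 windows held the κB consensus. Of 34943 RefSeq windows of this length, 7.66% held GAS, 8.10% the ISRE core, 10.5% the C/EBP core, 7.35% TATAAA and 5.90% the κB consensus, so each match is a description of letters that are common. C1S, C3 and SERPING1 have no window shown.

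Of the 9 genes, 8 had enough counts to be tested. C1R, C1S, CFB and CD59 were called higher in UBXN1-knockdown cells, set beside 28.0% of all genes, and C5 was called lower, set beside 28.2%. C3, CFI and CD55 were not called, and SERPING1 had too few counts to be tested. The median log2 fold change of the 8 was 0.89, against 0.016 over all genes tested. It is a description only, since the genes were chosen with earlier results of these data known. At a fold change of 2 with an unadjusted p, the genes called higher were C1R, C1S, C3 and CFB, beside a background of 11.8%, and C5 alone was lower, beside 6.09%.

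**Figure D1:**
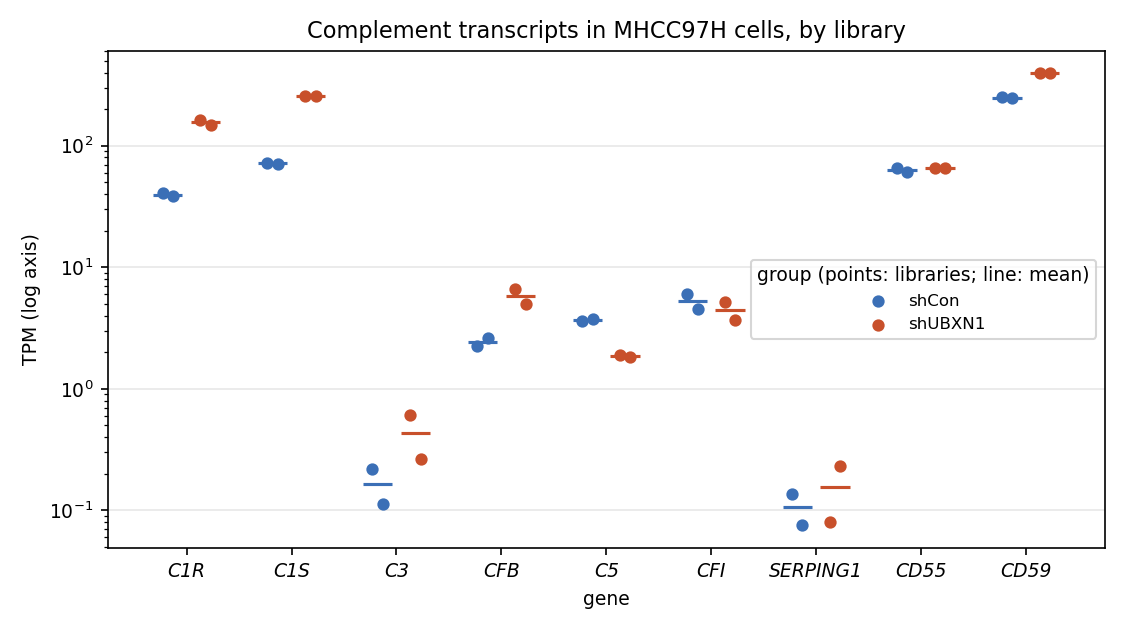
Level of each of the 9 complement transcripts in TPM (a level scaled by library and by gene length, log axis) in the shCon and shUBXN1 libraries, each point 1 library and each line a group mean. C1R and C1S sit near 39.6 and 71.5 TPM in shCon and near 155 and 256 TPM in shUBXN1, while the CD55 points of both groups lie at 60.9 to 66.0 TPM.

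Among the 9, the largest rises were those of C1R and C1S, which encode the serine proteases of the C1 complex. C1R (ENSG00000159403, chr12:7080214-7092540, minus strand of hg38) was read at 1253 and 1073 counts in shCon and at 4347 and 4047 counts in shUBXN1. Its CPM was 46.9 and 45.6 in control cells against 175 and 173 in knockdown cells, a wide gap between groups with each pair close together. The change was 3.76-fold (log2 fold change 1.91, SE 0.0744, adjusted p = 1.75e-10). Any part of the C/EBP core letters of the C1R promoter window, found in 10.5% of all windows, was not tested. C1S (ENSG00000182326, chr12:6988259-7071032, plus strand) was read at 2920 and 2581 counts in shCon and at 9051 and 9096 counts in shUBXN1. Its rise was 3.44-fold, from 110 ± 0.243 to 377 ± 16.1 CPM (SD, n = 2; log2 fold change 1.78, SE 0.0761, adjusted p = 3.76e-10), again without overlap.

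C1R and C1S are neighbours that face each other on chromosome 12, with 9181 bases between their annotated ends. Per unit of length, C1R stood at 0.562 and 0.545 of the C1S level in shCon and at 0.629 and 0.583 in shUBXN1, so the pair kept nearly the same proportion while both levels rose. C1RL, a protease-like relative beside C1R, shares 11.6% of the exon bases of C1R on the same strand, and reads there may have been divided between the rows. With the counts of both genes summed, the log2 fold change was 1.63 (SE 0.0735, adjusted p = 5.78e-10). The 3 genes outside the lists with CPM patterns nearest to C1R, by Euclidean distance of the 4 log2 CPM values less their shCon mean, were LAMB2 at 0.0409, BIRC3 at 0.0499 and ENSG00000250644 at 0.0618.

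Among the components where the pathways meet, C3 was barely transcribed and CFB rose from a low level. C3 (ENSG00000125730, chr19:6677704-6730562, minus strand), the central component whose cleavage all pathways share, was read at 15 and 7 counts in shCon and at 36 and 16 counts in shUBXN1. Both knockdown libraries lay above both controls, though shUBXN1 replicate 2 exceeded shCon replicate 1 by 1 count before scaling. The fitted log2 fold change was 1.29 (SE 0.54, adjusted p = 0.0565), so C3 was not called, and leaving out 1 library moved the value between 0.65 and 1.83. It was called without shUBXN1 replicate 2 (adjusted p = 0.0243), with no filter on low counts (adjusted p = 0.0414) and at a fold change of 2 with an unadjusted p.

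CFB (ENSG00000243649, chr6:31945650-31952086, plus strand), which supplies the protease of the alternative pathway convertase, was read at 73 and 77 counts in shCon and at 188 and 142 counts in shUBXN1. The rise was 2.28-fold, from 3.004 ± 0.381 to 6.82 ± 1.08 CPM (SD, n = 2; log2 fold change 1.19, SE 0.22, adjusted p = 3.78e-04), and the groups did not overlap. A readthrough row that joins C2 and CFB (ENSG00000244255) covers 42.3% of the exon bases of CFB and was itself read at 41 and 21 counts in shCon and at 137 and 197 counts in shUBXN1. Added to CFB, in a setting chosen after the data were seen, it gave a log2 fold change of 1.71 (SE 0.15, adjusted p = 4.45e-07), and with C2 added as well 1.44 (SE 0.11, adjusted p = 1.04e-07). Any part of the GAS, ISRE core and TATA letters of the CFB promoter window in this rise was not tested.

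C5, the component that is split into the C5a anaphylatoxin and the first piece of the membrane attack complex, went the other way. C5 (ENSG00000106804, chr9:120932987-121075195, minus strand) was read at 259 and 245 counts in shCon and at 118 and 115 counts in shUBXN1. The fall was 2.08-fold, from 10.1 ± 0.505 to 4.83 ± 0.102 CPM (SD, n = 2; log2 fold change -1.06, SE 0.16, adjusted p = 7.58e-05), and both knockdown libraries lay below both controls. CNTRL, on the opposite strand, shares 2.42% of the exon bases of C5 and was read at 715 and 661 counts in shCon and at 419 and 340 counts in shUBXN1. Whether counting used strand is not given in the sources used here. Nearest to C5 in CPM pattern, by the same distance, were MLLT1 at 0.0185, PDXP at 0.0190 and AGPAT1 at 0.0326.

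Neither of the soluble inhibitors was called. CFI (ENSG00000205403, chr4:109731008-109802150, minus strand), the protease that cuts C3b and C4b, was read at 159 and 107 counts in shCon and at 118 and 86 counts in shUBXN1. Those groups overlapped in CPM, at 5.96 and 4.55 against 4.76 and 3.67, and the log2 fold change was -0.32 (95% interval -0.81 to 0.17, adjusted p = 0.254). With ENSG00000285330 added, a row that covers 29.4% of its exon bases, the log2 fold change was -0.38 (adjusted p = 0.112). SERPING1 (ENSG00000149131, chr11:57597387-57619171, plus strand), the inhibitor of C1r and C1s, was read at 4 and 2 counts in shCon and at 2 and 6 counts in shUBXN1. Those 6 and 8 summed counts gave a ratio of 1.39 with an exact 95% interval of 0.423 to 4.86, which covers counting error only. A difference in SERPING1 within that interval was not detectable at this depth.

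Of the membrane regulators, CD59 rose and CD55 showed no detectable difference. CD59 (ENSG00000085063, chr11:33703010-33736479, minus strand), which stops the membrane attack complex from closing, was read at 6432 and 5822 counts in shCon and at 8839 and 9023 counts in shUBXN1. Its rise was 1.52-fold, from 244 ± 4.65 to 371 ± 19.96 CPM (SD, n = 2; log2 fold change 0.60, SE 0.0760, adjusted p = 1.14e-05), with no overlap between groups, and it does not reach a fold change of 2. CD55 (ENSG00000196352, chr1:207321519-207386804, plus strand), which speeds the decay of convertases, was read at 1462 and 1224 counts in shCon and at 1268 and 1294 counts in shUBXN1. Its groups overlapped, at 54.8 and 52.0 CPM against 51.2 and 55.2 CPM, and the log2 fold change was -0.0065 (95% interval -0.18 to 0.16, adjusted p = 0.951). The value was positive with total count scaling (0.077) and with the GC trend removed (0.068). Per unit of length, CD59 was read at 3.78 and 4.08 times the level of CD55 in shCon and at 5.98 and 5.99 times in shUBXN1. ENSG00000284969, which covers 5.96% of the exon bases of CD59, left its log2 fold change at 0.60 when added.

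Set in order per unit of length, CD59 was the most abundant of the 9 in both groups, at 248 to 249 TPM in shCon and 393 to 394 TPM in shUBXN1. In shCon it was followed by C1S (70.6 to 72.5 TPM), CD55 (60.9 to 66.0 TPM), C1R (38.5 to 40.8 TPM), CFI (4.50 to 6.07 TPM), C5 (3.62 to 3.77 TPM) and CFB (2.25 to 2.62 TPM), each with a range over its libraries that did not overlap the next. C3 (0.113 to 0.219 TPM) and SERPING1 (0.0754 to 0.137 TPM) came last with overlapping ranges, C3 being higher in each library. In shUBXN1, C1R (148 to 162 TPM) stood above CD55 (65.7 to 65.8 TPM), and CFB (4.94 to 6.64 TPM) overlapped CFI (3.67 to 5.14 TPM) in range but was higher in each library, whereas it had been lower in shCon. Among all 61541 genes, C1R moved from rank 3943 in shCon to rank 912 in shUBXN1, and C1S from rank 2300 to rank 495, while C5 moved from rank 11355 to rank 13350.

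The wider system was described with 53 further complement genes in 7 lists by role, of which 26 passed the filter, 12 were called higher, 7 lower and 7 not called, beside 28.0% and 28.2% of all genes. Their median log2 fold change was 0.44. Some of the 26 passed the filter only through the group where they were high. Among them were C6, CD93, VTN and CPN2, through shUBXN1, and CPN1, through shCon. The direction of those genes was largely set by the filter, so counts and medians that include them are description only. In 12 of the 53 every library was at 0, among them C1QA, C1QB and C1QC, the recognition chains of C1, and C7, C8A and C8B of the membrane attack complex. C1R and C1S were thus transcribed without detectable C1q transcripts in these libraries.

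**Figure D2:**
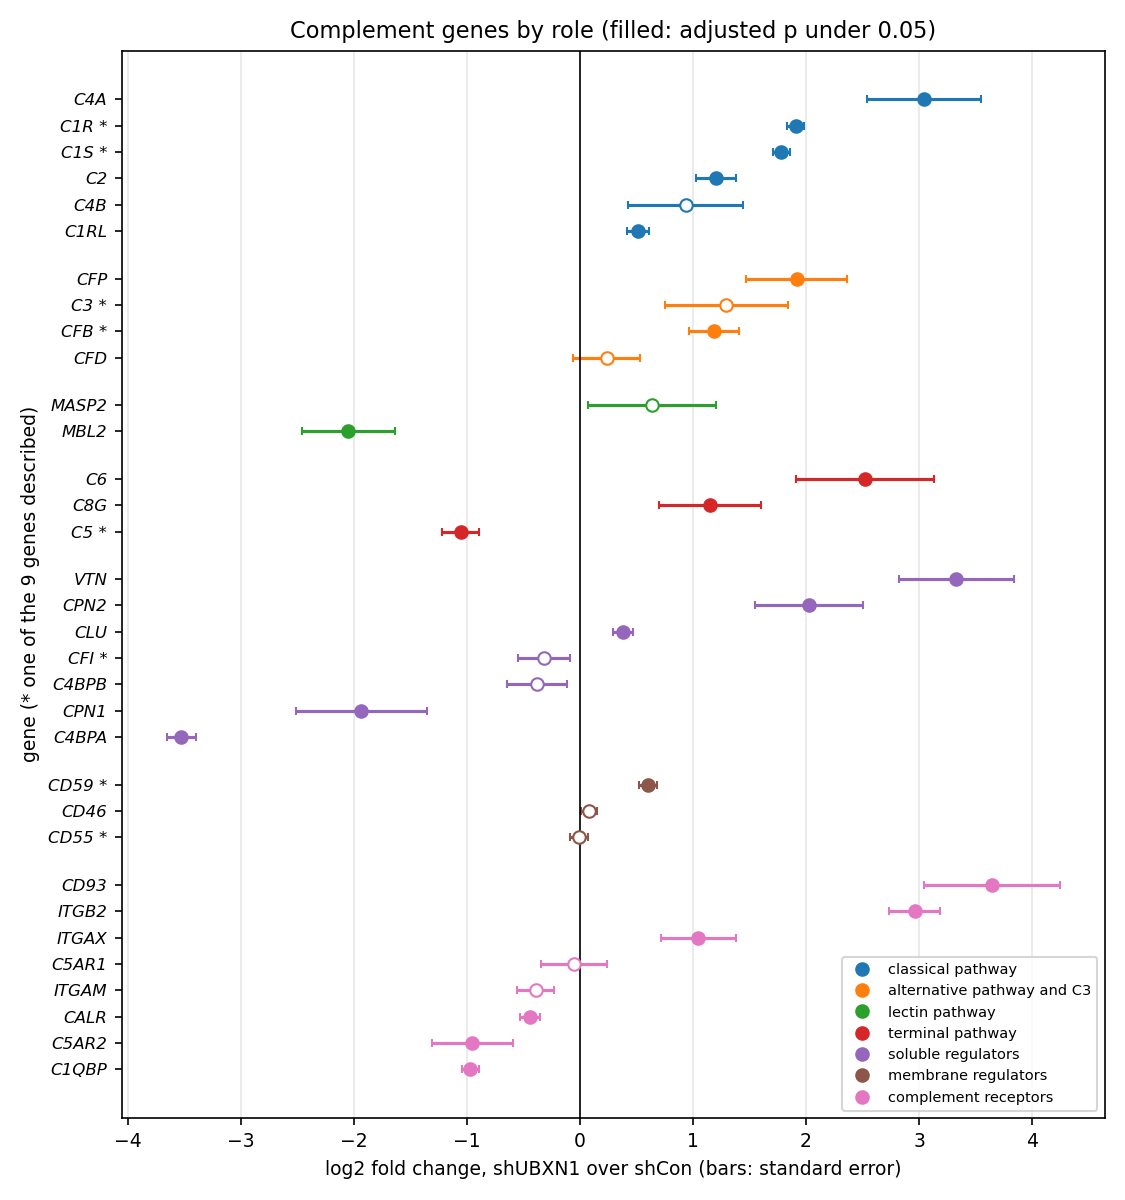
Log2 fold change, shUBXN1 over shCon, of the complement genes tested and reported here, grouped by role, with bars of 1 standard error. Filled points were called at adjusted p under 0.05 and asterisks mark the genes described above, with C1R and C1S at 1.91 and 1.78 among the classical pathway genes to the right of 0 and C4BPA at -3.53 farthest to the left.

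In the classical pathway list, 5 of the 6 tested genes were called higher and none lower, C1R and C1S included, beside 28.0% and 28.2% of all genes. C2, the protease that C1s cleaves, rose from 146 and 131 counts to 366 and 248 counts (log2 fold change 1.20, adjusted p = 4.67e-05). C4A rose from 4 and 15 counts to 97 and 58 counts (log2 fold change 3.04, adjusted p = 1.40e-04). Its copy C4B, nearly identical in sequence, was not called at 29 and 8 counts against 37 and 30 counts, so how reads were split between the copies is uncertain, and summed they gave 2.04 (adjusted p = 6.43e-05). Without shCon replicate 2, the C4A value was 4.35, and without shCon replicate 1 it was 2.32. C1RL rose by less (log2 fold change 0.51, adjusted p = 5.13e-04).

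In the alternative pathway and C3 list, CFP, or properdin, which stabilises the convertase, joined CFB in rising, from 19 and 14 counts to 85 and 36 counts (log2 fold change 1.92, adjusted p = 0.00210). Without shUBXN1 replicate 1 the CFP value was 1.22 and no longer called (adjusted p = 0.0739). CFD, the protease that cleaves factor B, was not called (log2 fold change 0.24, adjusted p = 0.519). Of the lectin pathway list only 2 of 9 genes were tested, and MBL2, mannose-binding lectin, fell from 80 and 60 counts to 10 and 22 counts (log2 fold change -2.05, adjusted p = 7.13e-04), with values of -2.78 without shUBXN1 replicate 2 and -1.56 without shUBXN1 replicate 1. In the terminal list, C6 and C8G were called higher while C5 was lower. C6 was read at 3 and 4 counts in shCon and at 21 and 19 counts in shUBXN1, a ratio of 5.95 with an exact 95% interval of 2.64 to 15.7 (adjusted p = 0.00278 in the fit). C8G gave a log2 fold change of 1.15 (adjusted p = 0.0411), a call that was lost with DESeq2 (adjusted p = 0.154) and on leaving out any of the 4 libraries (values 1.03 to 1.28), and C6 lost its call without shCon replicate 1 (adjusted p = 0.0660).

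Of 16 soluble regulators, CFI and SERPING1 among them, 8 were tested, 3 were called higher and 3 lower, beside 28.0% and 28.2% of all genes. C4BPA, the alpha chain of C4b-binding protein and a cofactor of factor I, fell the most of the complement genes tested, from 884 and 801 counts to 73 and 67 counts (log2 fold change -3.53, SE 0.13, adjusted p = 9.29e-11). C4BPB, its beta chain, was not called (log2 fold change -0.38, adjusted p = 0.241). CPN1 and CPN2, the subunits of carboxypeptidase N, which inactivates anaphylatoxins, moved in opposite directions, at log2 fold changes of -1.93 (adjusted p = 0.0114) and 2.03 (adjusted p = 0.00245). The CPN1 call was lost with DESeq2 (adjusted p = 0.0638), without shCon replicate 2 (value -1.47) and without shUBXN1 replicate 1 (value -1.78). VTN, or vitronectin, and CLU, or clusterin, which bind forming attack complexes, rose by 3.33 and 0.38 on the log2 scale (adjusted p = 6.83e-05 and 0.00184). VTN was read at 3 and 9 counts in shCon and at 57 and 62 counts in shUBXN1, and its value was 4.38 without shCon replicate 2 and 2.67 without shCon replicate 1. CD46, the third membrane regulator that was tested, was not called (log2 fold change 0.077, adjusted p = 0.382).

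Among the receptors and binding proteins, ITGB2, the beta chain of the complement receptor integrins, rose from 31 and 30 counts to 225 and 233 counts (log2 fold change 2.96, adjusted p = 7.40e-08). ITGAX, an alpha chain that pairs with it, was also called (log2 fold change 1.05, adjusted p = 0.0153), though not without shCon replicate 2 (value 0.72). ITGAM, another alpha chain of these integrins, was not called and its value was negative (log2 fold change -0.39, adjusted p = 0.0566). CD93 was read at 2 and 3 counts against 31 and 32 counts, a ratio of 13.1 with an exact 95% interval of 5.34 to 41.8 (adjusted p = 1.38e-04 in the fit). Of the C5a receptors, C5AR1 was not called (log2 fold change -0.053, adjusted p = 0.892) and C5AR2 was lower (log2 fold change -0.95, adjusted p = 0.0345). The C5AR2 call was lost with DESeq2 (adjusted p = 0.0816), without shCon replicate 1 (value -0.48) and without shUBXN1 replicate 2 (value -0.71). C1QBP and CALR, abundant intracellular proteins that can bind C1q, fell by 0.97 and 0.44 on the log2 scale (adjusted p = 7.68e-08 and 5.25e-04).

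**Figure D3:**
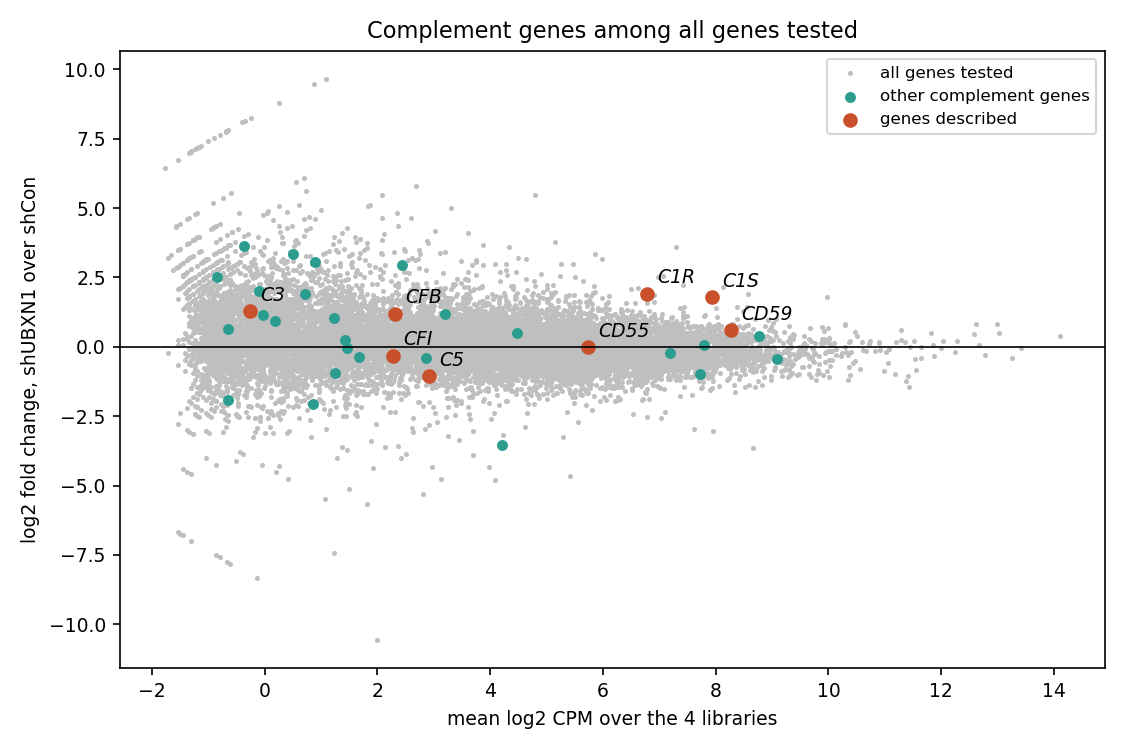
Log2 fold change, shUBXN1 over shCon, against mean log2 CPM over the 4 libraries for all 16863 genes tested (grey), with the 8 genes described (orange, labelled) and the 26 other complement genes (green). C1R at 1.91 and C1S at 1.78 lie above the line at 0 and C5 at -1.06 below it, and CFI and CD55, at -0.32 and -0.0065, were not called.

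Leukocytes express several of these receptors, so markers of other cell types were read in the same libraries. Of 13 leukocyte and macrophage markers, 5 were at 0 in every library (AIF1, CD3E and the C1q chains), PTPRC was at 2 counts in each control library and at 0 and 4 counts in the knockdown libraries, and 4 were tested. Of those, CD79A was higher (log2 fold change 1.21, adjusted p = 3.39e-06), and CD68 (log2 fold change -0.25, adjusted p = 0.0106) and LYZ (log2 fold change -1.66, adjusted p = 0.0360) were lower. Their summed level was 122 to 131 TPM in shCon and 141 to 154 TPM in shUBXN1, mostly CD68 and CD79A. Of 10 fibroblast and stellate markers, COL1A1 was higher (3.11) and LUM (-1.06), DCN (-3.16) and LRAT (-1.37) lower on the log2 scale, with summed levels of 27.5 to 28.2 TPM and 15.4 to 16.01 TPM. Of 8 endothelial markers, KDR (1.79) and PECAM1 (0.35) were higher, with summed levels of 15.3 to 15.4 TPM and 32.1 to 32.4 TPM, and EMCN and CLEC4G were at 0. CDH5, not tested, was at 3 and 6 counts in shCon and at 0 in both shUBXN1 libraries, which allows a ratio of up to 0.528 (exact 95% interval). The part of these markers in the complement results was not tested.

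Markers of the labelled liver origin stood at widely different levels. KRT8 and KRT18 were at 4053 and 1302 TPM in shCon, the plasma protein APOH at 52.4 TPM and the hepatocyte factor HNF4A at 25.3 TPM. Albumin (ALB) was at 15.4 TPM in shCon, and GPC3, a marker of many HCCs, was at 0 in every library. Of 16 hepatocyte lineage markers, 14 were tested, 9 were lower and 2 higher (KRT18 and SERPINA1) in UBXN1-knockdown cells, beside 28.2% and 28.0% of all genes, with a median log2 fold change of -0.85. The lowest p-values belonged to TF (-1.96), FGB (-4.02) and ALB (-1.97) among the genes reported here. C5, C4BPA and MBL2 fell with these markers in the same libraries, and C1R, C1S and CFB rose, and the part of the hepatocyte markers in either was not tested.

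Of 16 other acute phase genes of the liver, 8 were tested, of which 6 were lower and 2 higher, beside 28.2% and 28.0% of all genes. SERPINA3, a protease inhibitor, rose from 66 and 52 counts to 487 and 471 counts (log2 fold change 3.08, adjusted p = 1.61e-09), and HPX, or hemopexin, from 2 and 4 counts to 20 and 10 counts, a ratio of 5.21 with an exact 95% interval of 2.13 to 15.3. The fibrinogen chains FGB (-4.02), FGA (-2.35) and FGG (-2.57) and the orosomucoid ORM1 (-2.39) fell on the log2 scale, with adjusted p-values from 3.80e-08 to 0.00314. CRP was at 0 in every library.

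Of 29 cytokines, receptors and transcription factors known to act on complement transcription, 25 were tested, 16 were higher and 8 lower, beside 28.0% and 28.2% of all genes, with a median log2 fold change of 0.53. OSMR, the receptor chain for oncostatin M, rose from 2505 and 2059 counts to 5970 and 5528 counts (log2 fold change 1.39, adjusted p = 2.96e-09). STAT3, the factor that such receptors activate, rose from 2739 and 2299 counts to 5836 and 5757 counts (log2 fold change 1.26, adjusted p = 6.79e-09). SOCS3, a feedback inhibitor of the same receptors, and STAT2, of type I interferon signalling, rose by 1.39 and 1.10 on the log2 scale (adjusted p = 9.89e-08 and 1.58e-07). Falling were CEBPA (-1.60), a factor of the differentiated hepatocyte, and the receptors TNFRSF1A (-0.58) and IFNGR1 (-0.58), with adjusted p-values from 7.69e-09 to 5.49e-05. Their relatives CEBPD (1.04), CEBPB (0.53) and IFNGR2 (0.47) rose on the log2 scale, with adjusted p-values from 3.28e-06 to 1.05e-04. The IL6 transcript was at 0 in every library. The part of these cytokines, receptors and factors in the complement results was not tested.

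CD55 and CD59 are held on the membrane by a glycosylphosphatidylinositol (GPI) anchor, and the 26 genes listed for its synthesis were all tested. Of these, 12 were lower and 2 higher, beside 28.2% and 28.0% of all genes, and 12 were not called, with a median log2 fold change of -0.31. DPM2 (-0.74), PIGY (-0.67), PIGC (-0.67) and PIGW (-0.78) fell with the lowest p-values (adjusted p from 2.90e-06 to 3.65e-05), and PGAP1 (1.16) and PIGZ (0.69) rose (adjusted p = 1.02e-06 and 0.00159). The transcript of CD59 thus rose, and that of CD55 showed no detectable difference, in libraries where 12 of 26 anchor genes, and 28.2% of all genes, were lower. Surface protein was not measured in these libraries.

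**Figure D4:**
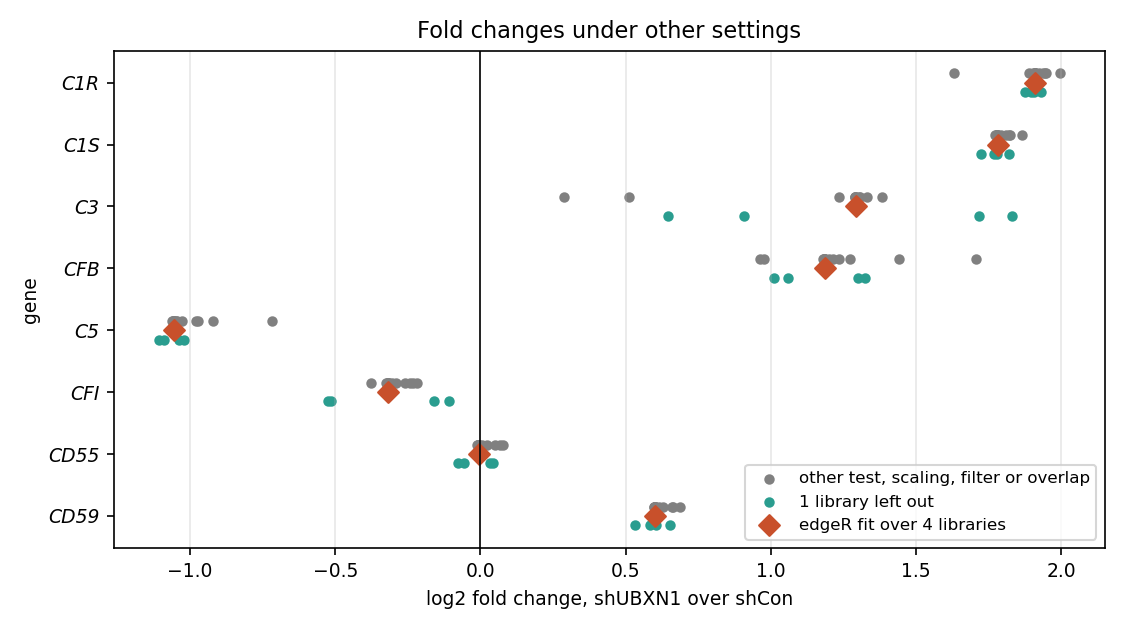
Log2 fold change, shUBXN1 over shCon, of the 8 tested genes under edgeR with 4 libraries (orange diamonds), under other tests, scalings, filters and sums of overlapping genes (grey), and with 1 library left out (teal). C1R stays at 1.63 or above and C5 between -1.11 and -0.72, while C3 ranges from 0.29 to 1.83 and CD55 lies on both sides of 0, from -0.077 to 0.077.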

How the data were processed

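The labels gave each library its group and replicate number. The authors extracted RNA, sequenced paired ends and aligned the reads with HISAT2. The methods name GRCh38, whereas the submitters' processing notes list GRCh37, HISAT2 2.0.4 and StringTie 1.3.0. The control is shCon in the labels but shRFP in the methods. The counting tool and the use of strand are not given in the sources used here. The authors deposited expected counts per gene, not normalized and with fractions, together with gene lengths. Of 61541 gene IDs, 61369 (99.7%) matched a symbol. Positions came from GENCODE release 44 on hg38, since the table holds none.

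Expected counts were rounded, filtered with filterByExpr and scaled by TMM. The filter keeps a gene with enough counts in 2 libraries, so a gene low in either group could pass through the other group alone. The direction of such a gene was largely set by the filter, and the counts and medians of the lists include such genes. The test was edgeR's quasi-likelihood test (version 4.0.16, glmQLFit then glmQLFTest, no block, R 4.3.3), and limma on TPM, the study's test, was an alternative. Standard errors are the log2 fold change over the square root of the F statistic. TPM came from the deposited counts and lengths. Adjusted p-values are Benjamini-Hochberg over the 16863 genes tested. With 2 libraries per group, the residual degrees of freedom were 2. Replicates differed beyond sampling noise (chi-square per degree of freedom 3.83 in shCon and 8.42 in shUBXN1). On simulated counts with 200 changed genes among 16863, 193 (96.5%) were recovered and 12 others called. The changed genes were drawn above a minimum mean level and given a fold change of 2 or more, and were far fewer than those called here. The recovery therefore does not apply to low genes such as C3 or to smaller changes such as that of CD59.

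Alternatives were DESeq2 1.42.0, limma 3.58.1 (voom, and log2 with a pseudocount of 1 on TPM or CPM), other scalings and filters, a GC correction, a replicate block, each library left out and overlapping genes summed. Named genes were the 9 members, UBXN1, every other complement gene called, the 4 genes called with the smallest p in each direction of the further lists, the 3 nearest CPM patterns to C1R and C5, and genes overlapping a member. Some genes of the lists are counted but not reported here. The members and lists were chosen with earlier results of these data known. Intervals on summed counts cover counting error only. Genes named beyond that rule (C1q chains, C7, C8A, C8B, CDH5, CRP, IL6, GPC3, C9, APOH, CEBPB, CEBPD, IFNGR2, and untested or not called genes of a list) were chosen after their values were seen.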

Additional observations from a re-analysis of the deposited data

How the results depend on the processing

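Of 542 alternative values, 497 kept their direction and side of the threshold, or, for counts, stayed within 1.5 times. C1R, C1S, C5 and CFB were called in the same direction under every alternative that was run. C3 was called with no filter on low counts (1.29), with the replicate block (1.29) and at a fold change of 2 with an unadjusted p (1.29), and ranged from 0.65 to 1.83 with 1 library left out. It was not tested at 10 or more counts in every library. CD59, at 0.60, was not called at a fold change of 2. CD55 turned positive with limma on log2(TPM + 1) (0.052), total count scaling (0.077), totals without mitochondrial genes (0.0051), at least 10 counts in every library (0.021) and the GC trend removed (0.068), and lay between -0.077 and 0.044 with 1 library left out. It was called under none of these. Other complement genes called higher numbered 7 at 10 or more counts in every library, where fewer genes are tested, and those called lower numbered 3 at a fold change of 2, where all genes called were 1997 higher and 1027 lower.

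Deviations of same-numbered libraries from their group means were weakly correlated over genes (0.0775). Whether these libraries were prepared together is not stated, and this value, which includes counting noise, cannot settle it. With the replicate block, 5 members were called higher, C3 joining (adjusted p = 0.0431). Total count scaling moved the median over all tested genes to 0.10 (log2). With a pseudocount of 1, low genes such as C3 show smaller changes (0.29 on TPM, 0.51 on CPM). With 2 libraries per group, the spread rests mostly on what edgeR borrows across genes. The cause of each change of call was not tested.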

Other observations

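C9, the pore-forming component of the membrane attack complex, was at 0 counts in both shCon libraries and at 4 and 3 counts in shUBXN1. It was singled out after its values were seen, and it did not have enough counts to be tested.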
